A study of Rattus norvegicus with 6 samples.

Results

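The genes described are 8 members of the prostaglandin pathway: the synthases Ptgds, Ptgs1, Ptgs2 and Ptges and the prostaglandin E2 receptors Ptger1, Ptger2, Ptger3 and Ptger4. They are 8 of 35561 gene or transcript names on the arrays, were found by the name given with each probe, and have 9 of 41012 probes (27 of 43379 spots), since Ptgs2 has 2 probes and each of the others has 1. The family was chosen by a measured value, the ratio of Ptgds on the ME vs CONT arrays, so all ratios below are given as a description and no test of them was made. The samples were hippocampi of male Wistar rats, 11 weeks old at the start, in 3 groups: sedentary controls (CONT), rats trained by mild treadmill running at 15 m/min (ME) and rats trained by intense running at 40 m/min (IE). Both trained groups ran 60 min a day, 5 times a week, for 6 weeks with habituation included. By the study's methods, habituation with slight electric shocks lasted longer for IE than for ME. Certain IE rats were given further shocks afterwards, and IE rats that refused to run were excluded. These differences cannot be told apart from that in speed. RNA of 5 rats was pooled to give 1 pool for each group. The ME and CONT pools, the IE and CONT pools and the IE and ME pools were each compared on 2 two-color arrays, the second with the dyes swapped, so each comparison had 1 pool against 1 pool and the spread between its 2 arrays is technical. The comparisons ask whether the transcript levels of these genes differed with training, and with its intensity.

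Prostaglandins are lipid signals made from arachidonic acid, which phospholipases free from membranes. The cyclooxygenases, encoded by Ptgs1 (mostly constitutive) and Ptgs2 (inducible, and also present in resting excitatory neurons), turn it into prostaglandin H2, and terminal synthases then make the individual prostaglandins. Ptgds encodes the lipocalin-type prostaglandin D synthase, which makes prostaglandin D2, is secreted into the cerebrospinal fluid and is known in brain from the leptomeninges, the choroid plexus and oligodendrocytes. Ptges encodes the inducible microsomal synthase of prostaglandin E2, whose receptors are the products of Ptger1 (coupled to calcium), Ptger2 and Ptger4 (which raise cyclic AMP) and Ptger3 (which mainly lowers it).

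Each probe is a 60-base oligonucleotide, and 4 are shown because the results turn on them or because their signal set what could be said: the Ptgds probe, the Ptgs2 probe that stayed near background, the Ptger3 probe and the Ptger4 probe. The sequences are written 5′ to 3′, all in lower case since no part of them was singled out.
Ptgds, A_43_P15529: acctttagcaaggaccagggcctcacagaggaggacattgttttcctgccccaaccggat
Ptgs2, A_44_P278593: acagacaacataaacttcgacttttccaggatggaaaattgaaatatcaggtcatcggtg
Ptger3, A_44_P276317: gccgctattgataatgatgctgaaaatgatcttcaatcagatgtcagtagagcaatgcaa
Ptger4, A_44_P454281: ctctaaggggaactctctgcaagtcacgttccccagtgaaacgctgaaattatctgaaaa
On rat build rn3, the build named in the array files, the Ptgds probe lies at chr3:3633310-3633779 on the minus strand, the Ptgs2 probe at chr13:64444979-64445163 on the plus strand, the Ptger3 probe at chr2:255696201-255734312 on the plus strand and the Ptger4 probe at chr2:54351529-54351588 on the minus strand. The intervals of the Ptgds, Ptgs2 and Ptger3 probes span 470, 185 and 38112 bases, longer than the probes, as for probes whose alignment to the genome is split. The Ptger4 interval has the 60 bases of its probe. The other members lie at chr3:15261487-15261546 (Ptgs1), chr13:64448537-64448596 (the other Ptgs2 probe, A_44_P472989), chr3:9842109-9842168 (Ptges, minus strand), chr19:26165522-26165569 (Ptger1) and chr15:20889441-20889500 (Ptger2). GC content of the 9 probes ran from 35% to 55%, the highest being that of Ptgds. No annotation of rn3 was used here, so the exon or untranslated region under each probe is not given.

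The level of a probe is its processed signal, a background-subtracted and dye-normalized intensity on a linear scale, and a ratio is the log2 of the exercise pool over CONT, or of IE over ME, as the mean of the 2 arrays ± the SD between them. A call of up-regulation required that Cy5/Cy3 reached 1.5 or more where the first-named pool carried Cy5 and 0.75 or less where the other pool did, with the software's p value below 0.01 on both, and a call of down-regulation required the reverse. That p compares 2 pools on 1 array and is no test across rats. All 9 member probes had ratios in the 3 comparisons. By the software's own test, all 4 readings of a comparison exceeded the background clearly (well above background) for 6 of the 9 with ME vs CONT, 5 with IE vs CONT and 4 with IE vs ME, while 70.5%, 70.1% and 62.9% of all probes passed the same limit. Per array, 66.5% to 74.4% of spots passed it in both channels, between 92 and 302 spots per array were outliers and left out, and 0 were saturated. The arrays with CONT lie on 1 slide and those of IE vs ME on another, so slide and comparison cannot be told apart. Of 12 hippocampal neuron markers, 9 were matched on the arrays, and their 11 probes were well above background in all readings of both comparisons with CONT (10 of 11 on the IE vs ME arrays), with median ratios of 0.02, 0.01 and 0.03.

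Ptgds was the member that differed between pools. It was called up-regulated with ME and down-regulated in IE relative to ME, and was not called with IE relative to CONT. Its signal was 25739 for ME and 10559 for CONT on the array with ME in Cy5, and 28423 for ME and 10749 for CONT on the swapped array. Both ME readings lay above both CONT readings, and the ratio was 1.29, and 1.40 with the dyes swapped (mean 1.34 ± 0.083, a fold of 2.54). On the IE vs CONT arrays the Ptgds signal was 9731 for IE and 10815 for CONT, and with the dyes swapped 9951 for IE and 10466 for CONT. The ratio was -0.15 and -0.07 (mean -0.11 ± 0.056, a fold of 0.925), so the IE readings lay slightly below the CONT readings on both arrays, far inside the limits of a call. On the separate slide that set IE against ME directly, the Ptgds signal was 12247 for IE and 36544 for ME, and with the dyes swapped 11610 for IE and 28827 for ME. The ratio was -1.58 and -1.31 (mean -1.44 ± 0.19, a fold of 0.367), and the ME readings again lay above the IE readings whichever dye they carried. In these bulk samples, a different share of cells of a type and a different amount of RNA per cell cannot be told apart. Marker genes of the leptomeninges, given further on, were higher in the same pool (median ratio 0.90 with ME vs CONT and -0.67 with IE vs ME), and their part in the Ptgds ratio was not tested.

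**Figure D1:**
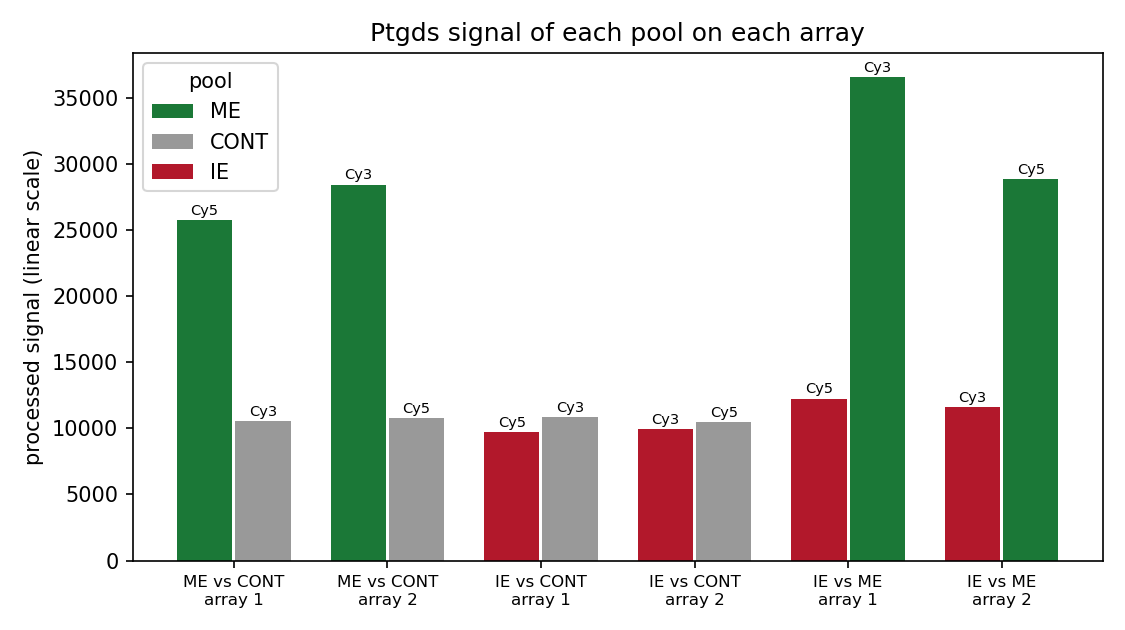
Processed signal (vertical axis, linear scale from 0) of the Ptgds probe for each pool on each of the 6 arrays (horizontal axis), with the dye of each pool written above its bar. Each bar is 1 spot and has no error bar. The ME bars lie between 25739 and 36544, and the CONT and IE bars between 9731 and 12247.

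Of all 41012 probes, 0.11% were called up-regulated with ME and 0.0122% down-regulated. Among the member probes, 1 of 9 (Ptgds) was up-regulated and 0 were down-regulated, and since Ptgds chose the family nothing is read from that count. With IE relative to CONT, 0.0244% of all probes were called up-regulated and 0.00488% down-regulated, and 0 of 9 member probes were called in either direction. With IE relative to ME, 0.0122% were called higher in IE and 0.061% lower in IE, and 1 of 9 member probes (Ptgds) was lower and 0 were higher. Nothing is read from that count either. Among probes well above background in all readings, Ptgds ranked 3 from the top of 28896 with ME vs CONT, 2403 from the bottom of 28744 with IE vs CONT and 1 from the bottom of 25803 with IE vs ME. The family was chosen with these ratios known, so the ranks with ME vs CONT and IE vs ME follow from that choice. These comparisons also share the ME pool. Nothing is read from these ranks. The comparisons with CONT share the CONT pool, and each pool served in 2 comparisons. The Ptgds ratio with IE vs CONT minus that with ME vs CONT was -1.46, beside -1.44 measured directly on the other slide, which gives 0.012 between these routes over the same pools.

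**Figure D2:**
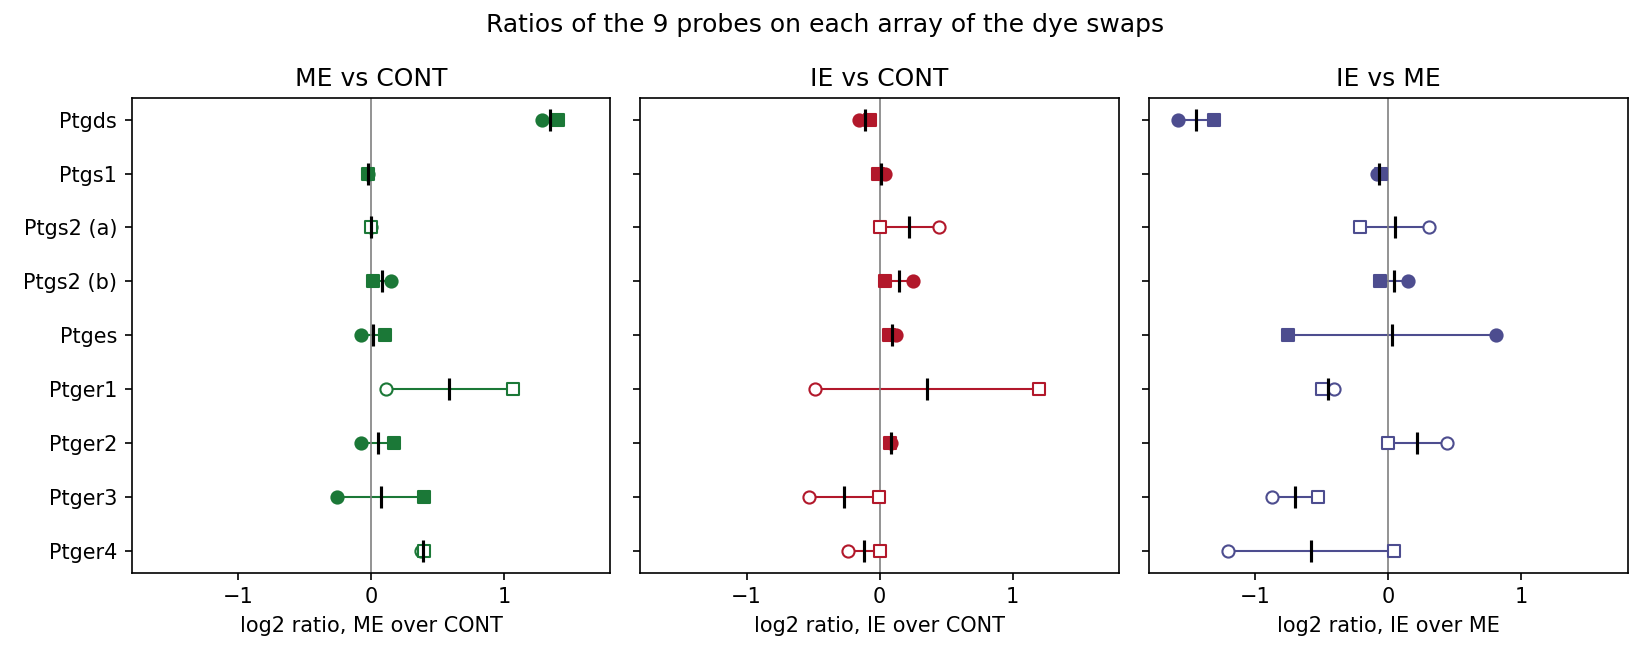
Log2 ratio (horizontal axes) of each of the 9 member probes (vertical axis) on the array with the first-named pool in Cy5 (circles) and on the swapped array (squares), with the mean as a black tick; filled symbols mark probes well above background in all 4 readings, Ptgs2 (a) is A_44_P278593 and Ptgs2 (b) is A_44_P472989. Ptgds lies at 1.34 with ME vs CONT, -0.11 with IE vs CONT and -1.44 with IE vs ME, and the circles and squares of Ptges with IE vs ME lie on opposite sides of 0.

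The cyclooxygenase genes stayed close to a ratio of 0. Ptgs1, printed as 10 spots, had signals of 448 for ME and 454 for CONT on the first array and 439 for ME and 446 for CONT on the swapped array (ratio -0.021 ± 0.0023). With IE vs CONT the Ptgs1 signals were 444 for IE and 432 for CONT, then 432 for IE and 436 for CONT (0.013 ± 0.037). On the IE vs ME arrays they were 462 for IE and 491 for ME, then 470 for IE and 487 for ME (-0.069 ± 0.025). IE was the lower pool at 9 of 9 kept Ptgs1 spots on the first of these arrays and at 10 of 10 on the second, and the SD between spots of an array was 0.044 and 0.025, but the fold was 0.953 and the indirect difference through CONT was 0.035, on the other side of 0. Spots of an array share their RNA and are no replicates of a group.

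Ptgs2 was well above background at probe A_44_P472989, also printed as 10 spots. Its signals were 580 for ME and 522 for CONT, then 532 for ME and 527 for CONT with the dyes swapped (0.082 ± 0.099). For IE and CONT they were 596 and 500 on the first array, then 529 and 515 on the swapped array (0.15 ± 0.15). On the IE vs ME arrays the signals were 497 for IE and 448 for ME, then 457 for IE and 477 for ME (0.044 ± 0.15). Each of these means lay within the SD between the arrays, and in each comparison the array with the first-named pool in Cy5 gave the higher ratio. On those arrays all kept Ptgs2 spots were above 0 (8 of 8, 8 of 8 and 10 of 10), whereas on the swapped arrays 6 of 8 and 8 of 10 were above 0 with ME and IE vs CONT and 10 of 10 were below 0 with IE vs ME. The other Ptgs2 probe, A_44_P278593, had 0 of 12 readings above background. Its signals ran from 2.96 to 11.7, and its ratios of 0 (set by the software on both arrays), 0.22 ± 0.32 and 0.049 ± 0.36 in the 3 comparisons, in the same order, give no measure of the transcript. The inducible cyclooxygenase was thus measured by 1 of its 2 probes.

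Ptges, the inducible prostaglandin E2 synthase, was above background in all 12 readings. With ME vs CONT its signals were 72.4 for ME and 76.1 for CONT, then 76.4 for ME and 70.9 for CONT, and the higher pool changed with the dye (0.016 ± 0.13). With IE vs CONT they were 79.3 for IE and 72.8 for CONT, then 155 for IE and 148 for CONT (0.097 ± 0.038). On that swapped array both channels of the spot read higher than on the first, and the ratio hardly differed (0.12 and 0.070). Without background subtraction and with loess normalization the IE vs CONT ratio of Ptges was 0.0047.

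On the IE vs ME arrays Ptges followed the dye. Its signals were 57.9 for IE (Cy5) and 33.0 for ME (Cy3) on the first array, and 44.3 for IE (Cy3) and 74.8 for ME (Cy5) on the swapped array. The ratio of IE to ME was 0.81 on the first and -0.75 on the second (0.028 ± 1.1), with software p values of 0.0044 and 0.0060. The brighter reading was Cy5 both times, and the mean of log2 Cy5/Cy3 over the 2 arrays was 0.78. Of all probes, 4.18% passed these limits in this comparison with 1 dye, and not 1 pool, brighter on both arrays, and 1 of 9 member probes (Ptges) was. Either array alone would have given Ptges as changed, once up-regulated and once down-regulated.

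**Figure D3:**
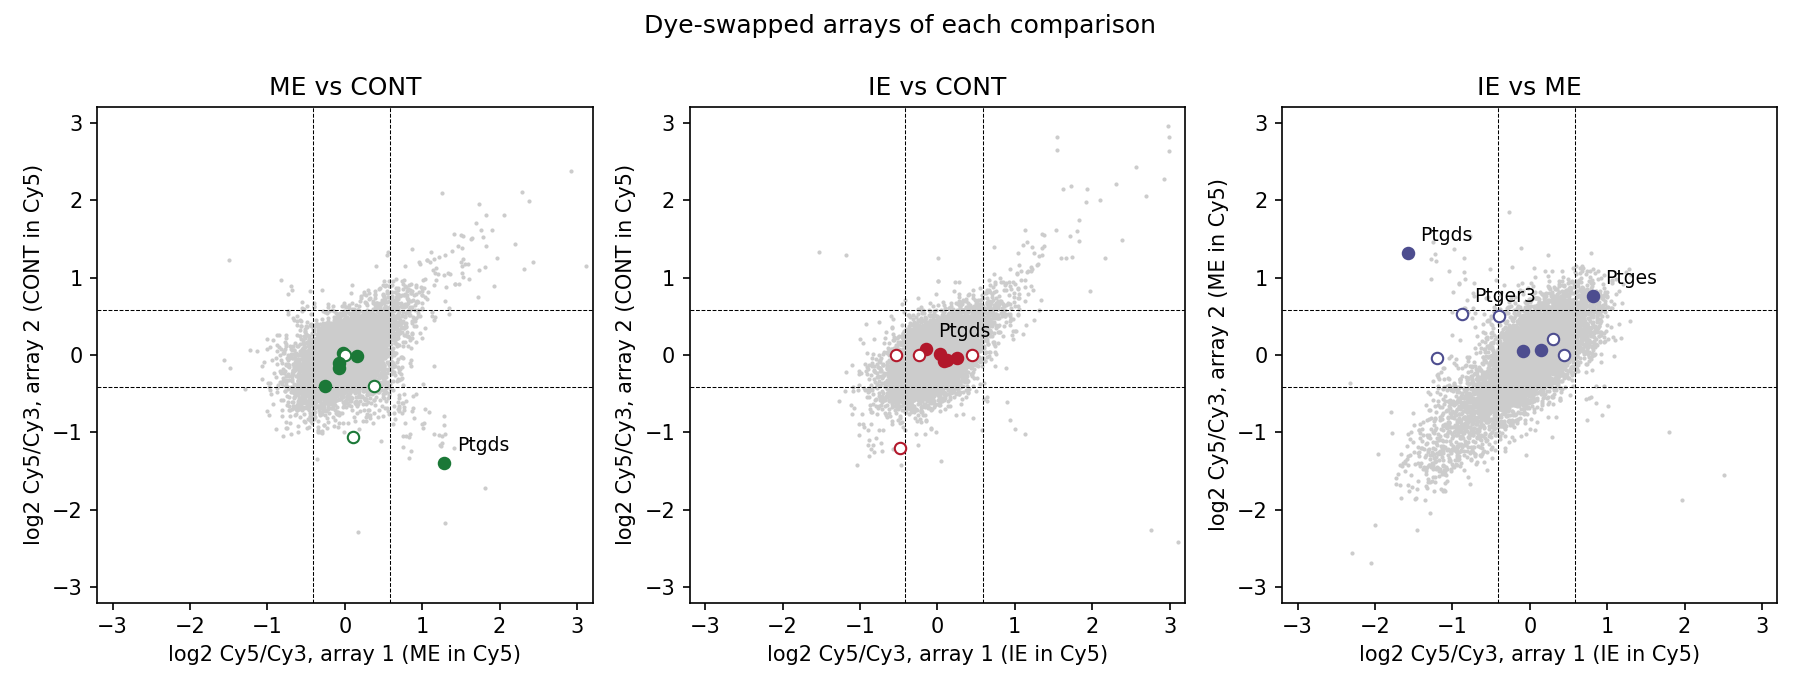
Log2 Cy5/Cy3 of each probe on the first array (horizontal axes) against the dye-swapped array (vertical axes) for each comparison, with probes well above background in all 4 readings in gray, the 9 member probes in color (open where a reading was not above background), the call limits as dashed lines, and probes beyond 3.2 in either direction outside the axes. A difference between pools lies at the upper left or lower right, where Ptgds is found with ME vs CONT and IE vs ME, and a difference between dyes lies at the upper right or lower left, where Ptges is found with IE vs ME.

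Of the prostaglandin E2 receptors, Ptger2 was above background in all readings on the slide with CONT. Its signals were 43.9 for ME and 46.3 for CONT, then 49.8 for ME and 44.1 for CONT (0.049 ± 0.18). With IE vs CONT they were 50.2 for IE and 47.2 for CONT, then 50.3 for IE and 47.7 for CONT (0.083 ± 0.0088). IE was the higher pool on both arrays by a fold of 1.06, and the ratio was -0.0068 after normexp background correction and loess. On the IE vs ME arrays 2 of the 4 readings were above background, the Cy5 reading of each array, and the ratio of 0.22 ± 0.31 lay within the SD.

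Ptger3, the receptor that mainly lowers cyclic AMP, was read near the limit of detection. Its signals were 23.1 for ME and 27.5 for CONT, then 25.3 for ME and 19.2 for CONT (0.073 ± 0.46). With IE vs CONT they were 22.4 for IE and 32.4 for CONT, then 20.2 for IE and 20.3 for CONT (-0.27 ± 0.37), with 3 of 4 readings above background. Neither of these means exceeded the SD between the arrays. On the IE vs ME arrays Ptger3 gave 11.2 for IE and 20.5 for ME, then 10.2 for IE and 14.7 for ME (-0.70 ± 0.25). ME was above background on both arrays and IE on neither. For IE, the lowest signal well above background was then taken, or the probe's own signal where that was higher. On that basis the ME pool was 1.13-fold higher than the IE pool. That is no firm bound, since Ptger2 read 24.5 for IE on the swapped array without being well above background. The probe was not called, with software p values of 0.067 and 0.40. Its ratio was -0.22 after normexp correction and -0.18 without background subtraction, and the difference of the ratios through CONT was -0.34.

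A further probe, A_44_P764622 (chr2:255774221-255774280, rn3, plus strand), carries a transcript cluster name, TC559337, and is described in the array files as part of the EP3 receptor transcript. It does not bear the Ptger3 name, was not among the 9 member probes and was looked at after its values were seen. Its ratio was 0.16 ± 0.013 with ME vs CONT and 0.32 ± 0.074 with IE vs CONT, with signals between 79.4 and 103, and it was not called in either. With IE vs ME 2 of 4 readings were above background and the ratio was 0.056 ± 0.095. The 2 probes thus differed in sign with IE vs CONT (-0.27 ± 0.37 for the Ptger3 probe), and this difference was not tested.

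Ptger1 and Ptger4 were not measured above background in most readings. Ptger1 had 1 of 12 readings above it, that of ME on the first ME vs CONT array (10.4 for ME, 9.59 for CONT). Its ratios with ME and IE vs CONT, 0.59 ± 0.68 and 0.36 ± 1.2, spread widely between the arrays. With IE vs ME the Ptger1 ratio was -0.45 ± 0.065, with 0 of 4 readings above background, and it was -0.0015 after normexp correction. Its interval on rn3 covers 48 bases of the 60-base probe. Ptger4 had 0 of 12 readings above background, with signals between 3.01 and 11.1. Its ratio with ME vs CONT was 0.39 ± 0.016, in which both arrays gave nearly the same value (0.38 and 0.40), and after normexp correction it was -0.012. Close repeats of a ratio therefore came with signals at which both pools were not well above background. No fold is given for Ptger1 or Ptger4.

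Leaving out Ptgds, the ratios of the 8 other member probes ran from -0.021 to 0.59 with ME vs CONT, from -0.27 to 0.36 with IE vs CONT and from -0.70 to 0.22 with IE vs ME. Among those well above background in all readings (5, 4 and 3 probes) they ran from -0.021 to 0.082, from 0.013 to 0.15 and from -0.069 to 0.044. For 6, 6 and 5 of the 8 the mean lay within the SD between the arrays. Ptgds included, the median over the members above background was 0.061, 0.083 and -0.021, beside -0.0025, 0.0018 and 0.0028 for all probes above background. Of these, the ratio farthest from 0 in a comparison with CONT, apart from Ptgds, was that of Ptgs2 with IE (0.15 ± 0.15, a fold of 1.11).

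The rest of the prostanoid pathway was followed in 4 lists, of other synthases, other receptors, enzymes that release arachidonic acid, and transport and breakdown. Of their 27 genes, 25 were on the arrays with 30 probes, and 0 probes were called in any comparison, in which 23, 24 and 19 were well above background in all readings. Of all probes, 0.11% were called up-regulated and 0.0122% down-regulated with ME vs CONT. The shares were 0.0244% and 0.00488% with IE vs CONT, and 0.0122% and 0.061% with IE vs ME. Calls were thus rare over all probes, and nothing is read from their absence among these 30. Their median ratio was 0.037 with ME vs CONT, 0.024 with IE vs CONT and 0.016 with IE vs ME. The ratios ran from -0.11 to 0.31, from -0.13 to 0.22 and from -0.16 to 0.11. None of the 23 and 19 probes lay as far from 0 as Ptgds with ME vs CONT or IE vs ME (0 and 0), while 4 of 24 did so with IE vs CONT, where Ptgds itself was near 0. Since the family was chosen for the ratio of Ptgds, nothing is read from these counts.

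By list, the highest and lowest of the other synthases with ME vs CONT were Ptgis, the prostacyclin synthase (0.30 ± 0.21), and Tbxas1, the thromboxane synthase (-0.079 ± 0.073). With IE vs CONT they were Cbr1, a carbonyl reductase acting on prostaglandin E2 (0.059 ± 0.17), and Ptges2, another prostaglandin E synthase (-0.13 ± 0.30). With IE vs ME they were Tbxas1 (0.035 ± 0.23) and Ptgis (-0.16 ± 0.36). Only the 2 ratios with ME vs CONT exceeded their SD. Hpgds, which makes prostaglandin D2 in hematopoietic cells and is named here after its values were seen, had ratios of -0.077 ± 0.25 and -0.057 ± 0.0078 with ME and IE vs CONT, and with IE vs ME 2 of its 4 readings were above background (-0.21 ± 0.88). With ME vs CONT its ratio lay within the SD and below 0, where that of Ptgds was 1.34.

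Among the other receptors, the highest and lowest were Tbxa2r, the thromboxane receptor (0.12 ± 0.39), and Ptgir, the prostacyclin receptor (-0.11 ± 0.031), with ME vs CONT. With IE vs CONT Ptgir was highest (0.13 ± 0.074) and Tbxa2r lowest (-0.083 ± 0.71). With IE vs ME Tbxa2r was highest (0.051 ± 0.41) and Ptgdr2, a receptor of prostaglandin D2, lowest (-0.089 ± 0.24). Ptgdr2 had ratios of 0.039 ± 0.090 with ME vs CONT and 0.022 ± 0.024 with IE vs CONT, both within the SD. The other prostaglandin D2 receptor gene, Ptgdr, also named after its values were seen, had 2, 0 and 1 of 4 readings above background and ratios of opposite sign on the arrays of each pair.

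Of the enzymes that release arachidonic acid, Pla2g4b, a cytosolic phospholipase A2, was highest with ME vs CONT at 1 of its probes (0.25 ± 0.067, against 0.00084 ± 0.039 at the other) and with IE vs CONT (0.087 ± 0.21). Plaa, a phospholipase A2 activating protein, was lowest in both (-0.045 ± 0.14 and -0.090 ± 0.012), and with IE vs ME its 2 probes were the highest and the lowest (0.11 ± 0.091 and -0.0024 ± 0.16). Of transport and breakdown, Ptgr1, a prostaglandin reductase, was highest with ME vs CONT (0.31 ± 0.053) and Ptgr2, another, lowest (-0.068 ± 0.071). The 2 probes of Abcc4, an exporter of prostaglandins, were the highest and lowest with IE vs CONT (0.22 ± 0.14 and -0.11 ± 0.065) and with IE vs ME in the reverse order (-0.061 ± 0.014 and 0.11 ± 0.11). In 3 of these cases the probes of 1 gene marked both ends of a list. In the neighboring lipoxygenase and leukotriene branch, 10 of 10 genes were on the arrays, 5, 5 and 3 of 10 probes were well above background, 0 were called, and the medians were 0.021, -0.024 and -0.012. At most 0.11% of all probes were called in a direction, so nothing is read from the absence of calls.

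**Figure D4:**
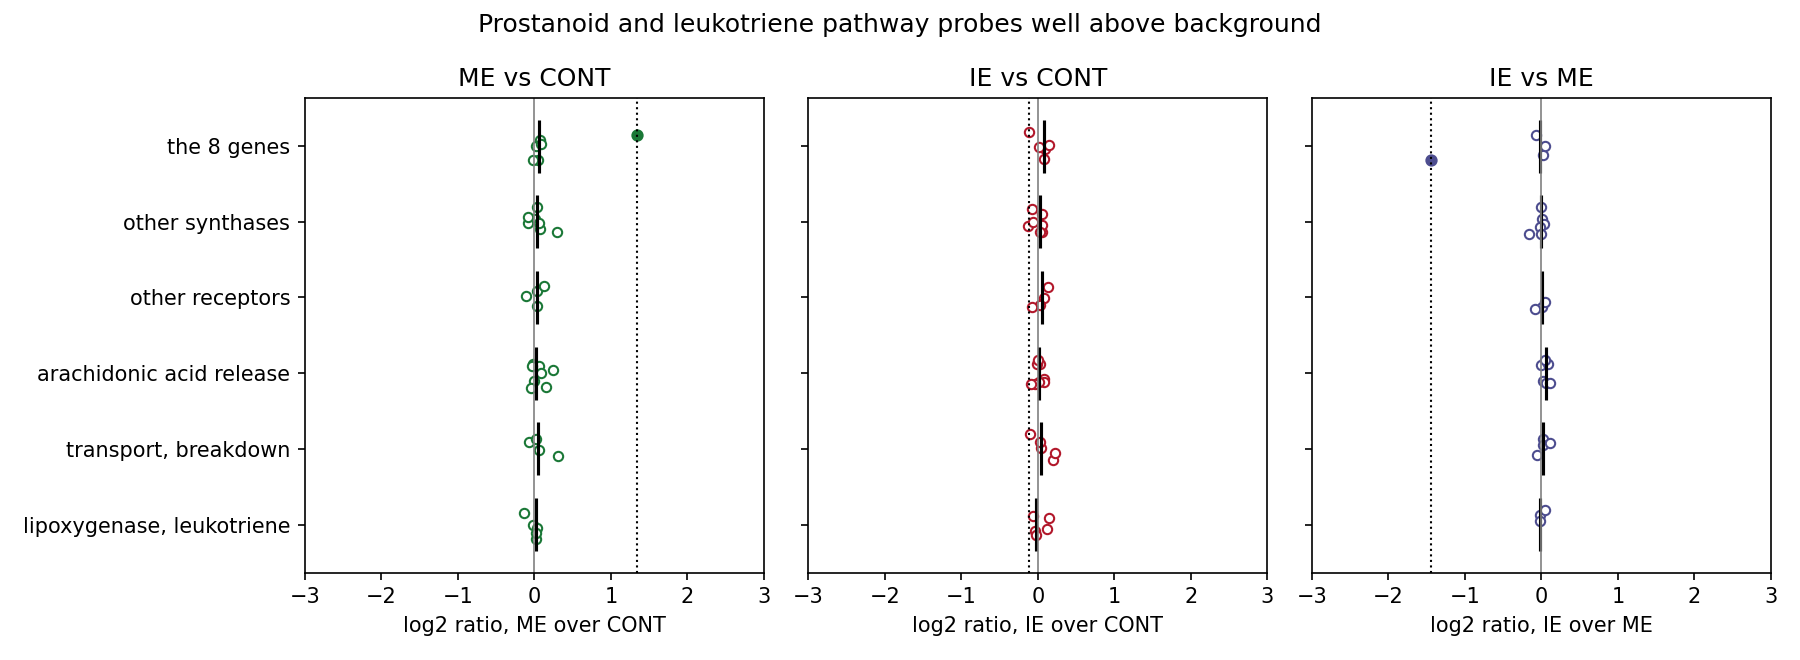
Mean log2 ratio (horizontal axes) of the probes well above background in all 4 readings, by list (vertical axis), for each comparison; filled points are called probes, black ticks the median of a list and the dotted line the ratio of Ptgds, and points are spread vertically for display. Ptgds is the filled point at 1.34 with ME vs CONT and -1.44 with IE vs ME, and the probes of the 4 other prostanoid lists lie between -0.16 and 0.31.

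By Euclidean distance over the 6 array ratios, among 24712 other probes well above background in every reading, the 5 probes most like Ptgds were those of Ogn_predicted (osteoglycin, a small proteoglycan of connective tissue), Col1a2, Col3a1 and Col1a1 (fibrillar collagen chains) and Nupr1 (a stress-induced nuclear protein). Their distances were 0.50, 0.51, 0.55, 0.64 and 0.58, against a median of 2.84 over the probes compared. The likeness is a description over 6 arrays of 3 pools. Like Ptgds, all 5 were called up-regulated with ME and down-regulated in IE relative to ME, and were not called with IE vs CONT. That follows from how they were picked, by the same 6 array ratios, and nothing is read from it. Their ratios with ME vs CONT lay between 1.09 (Nupr1) and 1.31 (Ogn_predicted), below the 1.34 of Ptgds.

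Since Ptgds is known from the leptomeninges, the choroid plexus and oligodendrocytes, marker lists of these tissues are given beside it. Of 19 leptomeningeal markers, which do not include Ptgds, 15 were on the arrays, and 12 of their 19 probes (10 genes) were called up-regulated with ME. All 19 probes were well above background with ME vs CONT, so each matched marker was read in both pools, while 4 of the list were not matched on the arrays. Their median ratio was 0.90 with ME vs CONT, -0.021 with IE vs CONT (0 of 19 probes called) and -0.67 with IE vs ME (9 of 19 down-regulated in IE, 7 genes). The summed signal of the list ran from 20171 to 20272 in ME and from 11946 to 12771 in CONT on the ME vs CONT arrays, from 11804 to 12129 in IE and from 11674 to 12258 in CONT on the IE vs CONT arrays, and from 7762 to 7914 in IE and from 12644 to 12879 in ME on the others. By their median, these markers thus moved in the same comparisons and directions as Ptgds. The list was chosen with earlier results of these data known. Not called with ME vs CONT were Slc22a6 (0.52), Bgn (0.27), Dcn (0.17), Lum (0.066) and Slc47a1 (0.032). On the list are 3 of the 5 genes most like Ptgds (Ogn, Col1a2 and Col1a1). Other probes of Ogn (1.20) and Col1a2 (0.94) were also called with ME vs CONT. Col1a1 probes A_44_P350521 (0.24) and A_44_P419137 (0.13) were not.

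Choroid plexus markers had medians of 0.22 with ME vs CONT, 0.36 with IE vs CONT and 0.42 with IE vs ME. These are over the 8, 8 and 7 probes well above background. Of 16 genes, 15 were on the arrays with 17 probes, of which 3 were called up-regulated with ME (Kcnj13, Sostdc1 and Ttr), 5 with IE vs CONT and 2 with IE vs ME. Ttr, the transthyretin gene, had ratios of 0.91 ± 0.24, 2.51 ± 0.35 and 1.92 ± 0.071. The summed signal ran from 3466 to 3993 in ME and from 2833 to 3187 in CONT, from 6647 to 7633 in IE and from 3162 to 3769 in CONT, and from 6580 to 6812 in IE and from 3046 to 3241 in ME. Above background in no reading were 5, 0 and 2 of the 17 probes. By summed signal the IE pool was the highest in these markers. With IE vs ME, 6 of the 7 probes well above background had ratios above 0, and Kcnj13 was below it (-0.12 ± 0.42). The smallest ratio with IE vs CONT was that of Folr1 (0.12 ± 0.054). Ptgds was -0.11 ± 0.056 with IE vs CONT, and the part of the choroid plexus in the Ptgds ratios was not tested. Of 14 oligodendrocyte genes with 21 probes, 0 probes were called, with medians of 0.0077, 0.050 and 0.047. Microglia (12 genes, medians -0.0020, 0.0016 and -0.0031), astrocyte (9 genes, -0.0098, -0.0045 and 0.022) and endothelial markers (9 genes, 0.027, -0.0095 and -0.12) also gave 0 calls in the 3 comparisons. Since at most 0.11% of all probes were called in a direction, nothing is read from the lists without calls.

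**Figure D5:**
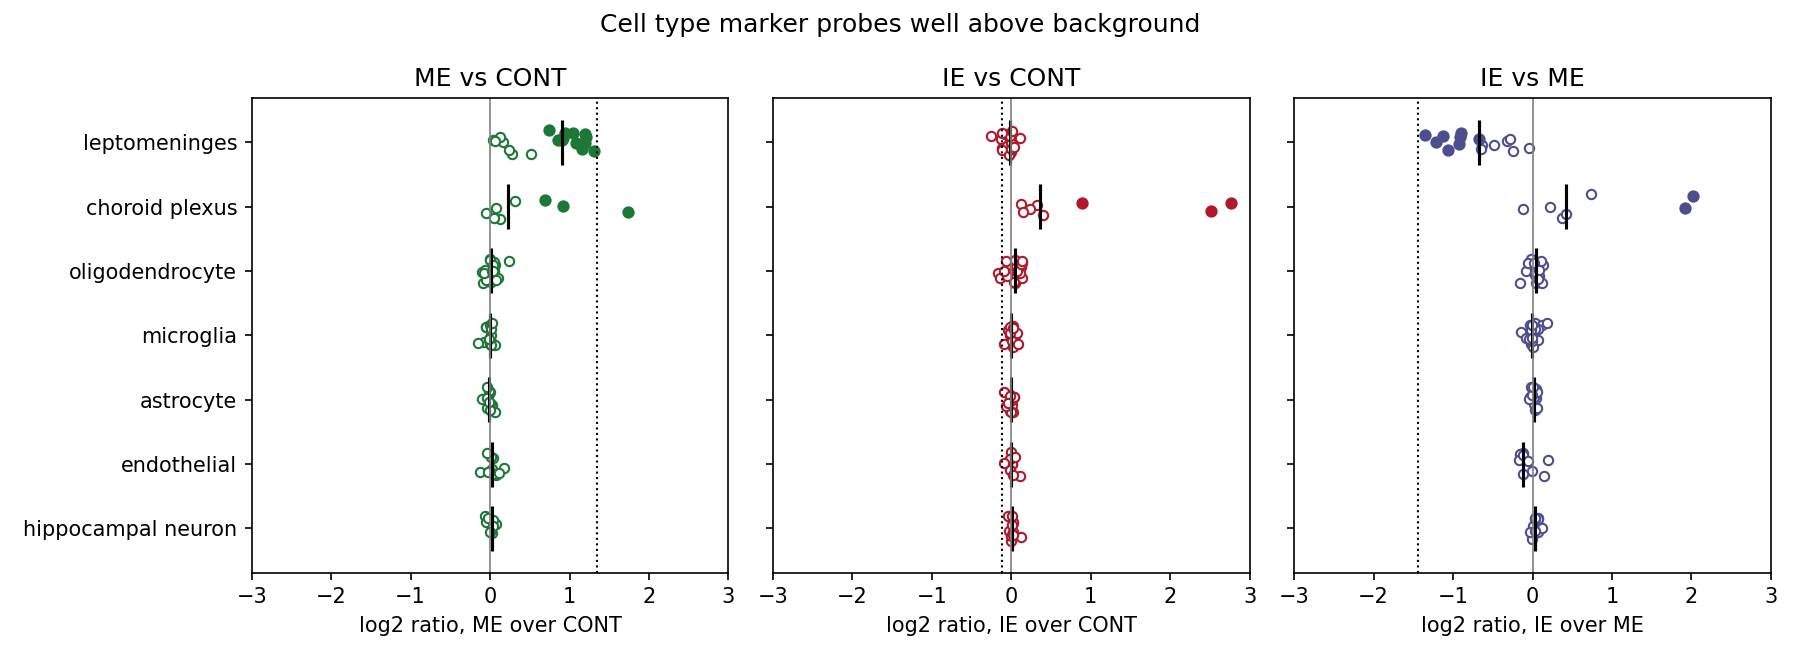
Mean log2 ratio (horizontal axes) of marker probes well above background in all 4 readings, by cell type list (vertical axis), for each comparison; filled points are called probes, black ticks the median of a list and the dotted line the ratio of Ptgds, and points are spread vertically for display. Leptomeningeal markers have medians of 0.90 with ME vs CONT and -0.67 with IE vs ME, on the same side of 0 as Ptgds, and choroid plexus markers reach 2.76 with IE vs CONT.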

How the data were processed

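Pooled hippocampal RNA of 3 groups was measured on 6 two-color Agilent arrays (Wistar rats, 5 per pool, tissue collected 24 or 36 h after training per the labels, while the study's methods give another time). The authors quantified the scans with Feature Extraction (Agilent; 9.5.3.1 per the headers of the arrays with CONT, 11.0.1.1 for those of IE vs ME). The deposited log ratio of a spot is the log10 of Cy5 over Cy3 after background subtraction and LOWESS dye normalization, turned here to log2. The deposited p-value is that of an error model in the software, and the deposited signals are intensity values on a linear scale. A deposited value table, used as an alternative, gives log10 of processed Cy5 over processed Cy3 (100% of spots within 0.001), sign-turned for the swapped array.

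Control features (1639 per array) and outlier spots were left out, and a probe's value is the mean of its other spots, with the median p. A probe was above background where most of its spots were. No test across rats was possible, since each group had 1 pool, and the number of arrays limits the precision. The labels call the arrays of a pair different pools, while the methods describe 1 pool per group, which was followed. Members and gene lists were chosen with earlier results of these data known. Named were all member probes, per other pathway list the highest and lowest gene above background, and the 5 probes nearest to Ptgds. Of 41012 probes, 10735 were also named through RefSeq accessions (GRCr8). The fold of Ptger3 taken from the lowest signal well above background used the software's processed signals, with Aquantile normalization between the arrays of the pair. The criteria were tested on simulated data. Alternatives were no p threshold, the mean fold, a 1.5-fold range, a filter on dim probes, normexp (offset 50) or no background subtraction with loess, outliers kept, 1 array alone, and least squares over 6 arrays with a dye term per slide. Python 3.11.15, pandas 2.3.3, R 4.3.3 and limma 3.58.1 were used.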

Additional observations from a re-analysis of the deposited data

Results flagged for a closer look

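The Ptgds ratios lay on opposite sides of 0 in the comparisons with CONT: both ME vs CONT arrays gave a ratio above 0 (1.29 and 1.40) and both IE vs CONT arrays a ratio slightly below 0 (-0.15 and -0.07), the latter not called. The difference between the comparisons was -1.46 on the log2 scale. Such a pattern was looked for in the same way in the other 8 member probes, of which 0 met it. Nothing is read from that count. The family was chosen for the ratio of Ptgds, and the share of all probes with the pattern is not given. Ptger1, Ptger4 and 1 Ptgs2 probe were also hardly read above background. The difference of the Ptgds ratios was not tested, the comparisons share the CONT pool, and each rests on 1 pool against 1 pool. The leptomeningeal markers had medians of 0.90 with ME vs CONT, where 12 of 19 probes were called, and -0.021 with IE vs CONT, where 0 were, and their part was not tested.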

How the results depend on the processing

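No paired analysis was possible because only 1 pool stands for each group, and the numbers 1 and 2 name the arrays of a dye swap. The Ptgds ratio kept its sign under every alternative tried and stayed within 1 SD under those that use both arrays: normexp or no background subtraction with loess, the authors' value table, outliers kept and least squares over 6 arrays gave 1.31 to 1.34 with ME vs CONT, -0.11 to -0.10 with IE vs CONT and -1.45 to -1.42 with IE vs ME, and each array alone, which lies within 1 SD of the mean of a pair by construction, 1.29 to 1.40, -0.15 to -0.07 and -1.58 to -1.31. The count of member probes called was the same under each alternative for ME vs CONT (1) and IE vs CONT (0). With IE vs ME it was 1 under each except with either array left out, where it was 2, because Ptges passed on each array alone, in opposite directions. Of 120 ratios of the other 8 member probes under alternatives that use both arrays, 99 stayed within 1 SD of the reported value, 21 did not and 8 had the other sign, as had 10 of 48 from 1 array alone. Signal over background limits Ptger1, Ptger4 and 1 Ptgs2 probe, whose ratios depend on the background correction, and Ptger3 with IE vs ME.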
